A study of Mus musculus with 6 samples.

Results

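The ion carriers described here are the kidney genes of the mouse families Slc4, Slc8, Slc9, Slc12, Slc24 and Slc26 and of the P-type pumps Atp1 (Na,K-ATPase) and Atp2 (calcium pumps). They were chosen by gene symbol alone, and 59 of the 17680 genes in the files carry such a symbol. Kidney RNA was sequenced in bulk from 3 LPS and 3 Control mice, all wild-type C57BL/6 aged 6 to 8 weeks. LPS mice were injected intraperitoneally with lipopolysaccharide, the endotoxin of Gram-negative bacteria, given here as a model of septic kidney injury, and Control mice with phosphate-buffered saline (PBS), and both groups were sampled 24 h later (day 1). Neither the LPS dose nor the sex of the mice is stated in the sources used here. The question was which kidney transcripts differ once LPS has injured the organ.

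These carriers move the bulk of the salt that the kidney filters. The Na,K-ATPase on the blood side of each tubule cell keeps cell sodium low, and luminal carriers use that gradient. Slc9a3 exchanges sodium for protons and Slc4a4 returns bicarbonate to the blood in the proximal tubule, Slc12a1 (NKCC2, the target of furosemide) takes up sodium, potassium and chloride in the thick ascending limb, and Slc12a3 (NCC, the target of thiazides) takes up sodium and chloride in the distal convoluted tubule. Intercalated cells trade chloride for bicarbonate through Slc4a1 on the blood side of the acid-secreting type and Slc26a4 on the luminal side of the base-secreting type. Calcium leaves distal cells through the exchanger Slc8a1 and the plasma membrane pumps Atp2b1 and Atp2b4.

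The libraries held between 29097558 and 33454344 counts, and the carriers took 1.11% to 1.33% of the counts of the LPS libraries and 1.34% to 1.48% of those of the Control libraries. LPS replicate 2 also carried transcripts of another organ, with 7 seminal vesicle genes summing to 36340 CPM (reads per 1e+06 counted reads, scaled with TMM factors), against 32.4 to 45.9 CPM in each of the other 5 libraries. Results that rest on that library are given without it below. Bulk RNA cannot tell fewer cells of a type apart from less RNA per cell, and this holds for each value that follows. Markers of the proximal tubule, thick ascending limb, distal convoluted tubule and collecting duct were detected in both groups, as the kidney label implies.

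Of the 59 carriers 50 passed the filter on low counts and were tested. In LPS kidneys 5 of them were higher and 22 lower (edgeR's quasi-likelihood test at an adjusted p under 0.05, by Benjamini-Hochberg over 14219 genes). Without LPS replicate 2, 4 were higher and 19 lower. Calls over all genes were fewer in that fit too, with 3166 higher and 3031 lower of 14413 tested. With all libraries they were 3658 and 3527 of 14219. The 27 called carriers are 54% of those tested, beside 50.5% of all genes tested, so the share that changed was close to the background. The directions were 10% higher and 44% lower for the carriers, beside 25.7% and 24.8% for all genes. Of the 50 tested carriers 1 was called higher by at least 2-fold and 15 were called lower by as much, beside 8.24% and 9.62% of all genes tested. The median log2 fold change was -0.33 over the 50 carriers and 0.01 over all genes. For 29 of the 50 all LPS values lay on 1 side of all Control values, beside 60.2% of all genes. The difference between carriers and all genes was not tested, and the carriers were tested only where their counts passed the filter.

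**Figure D1:**
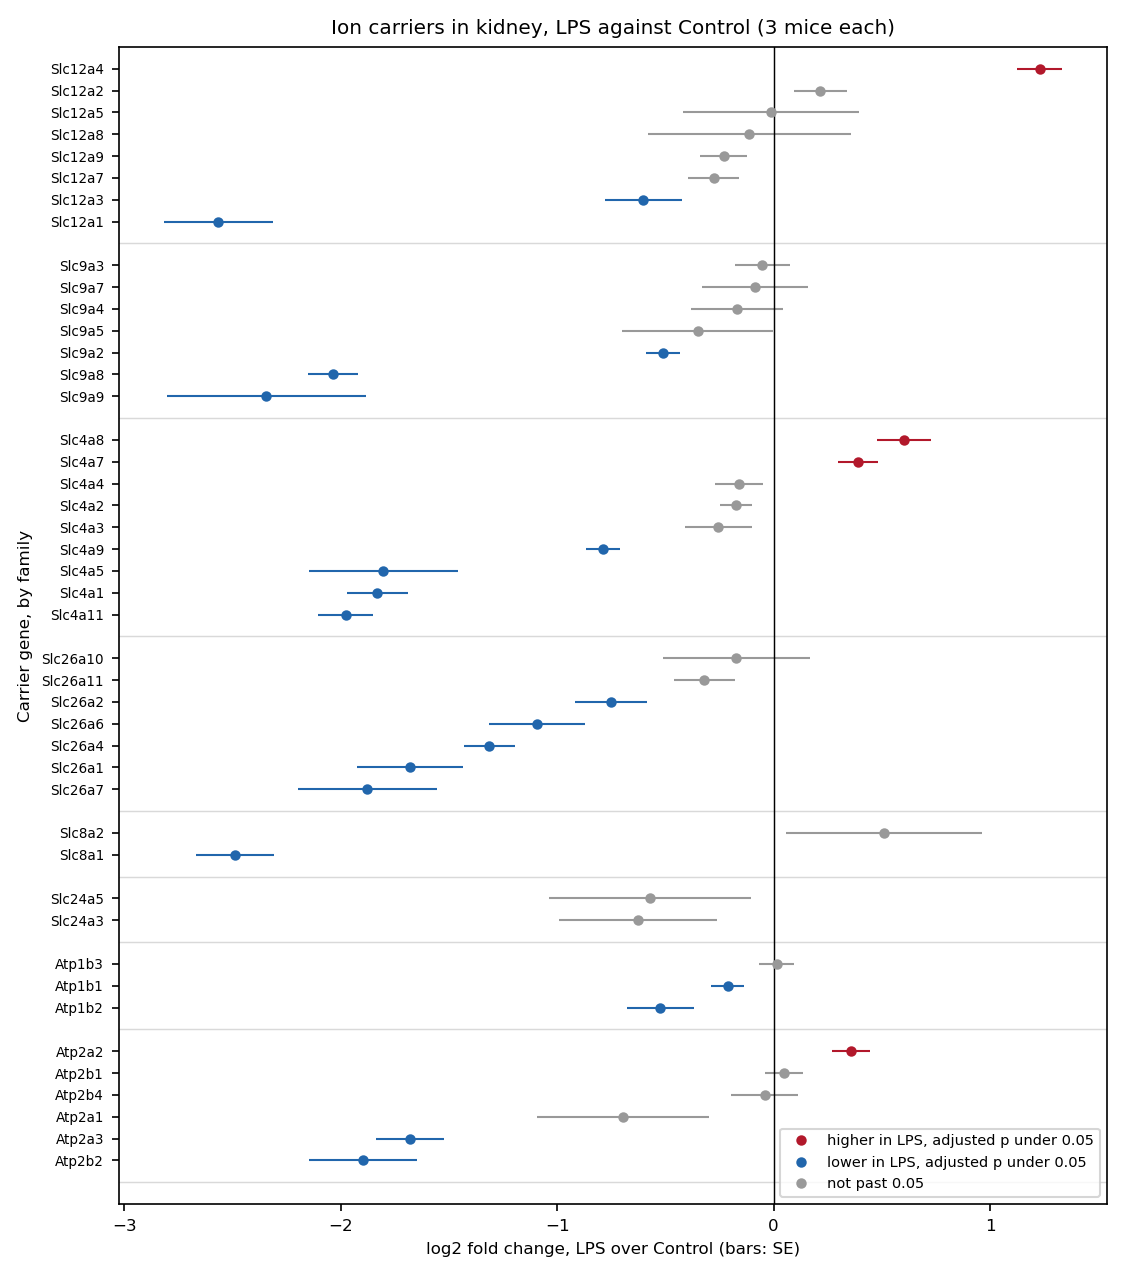
Log2 fold change of 44 tested carriers, LPS over Control, with its standard error (SE) as a bar, grouped by family. Points coloured for a call had an adjusted p under 0.05. Slc12a1 and Slc8a1 lie near -2.5, Slc12a4 is the 1 point above 1, and Slc4a4 and Slc9a3 lie close to 0.

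The cotransporter Slc12a1 had the largest decrease of all called carriers by fold. It had 375, 185 and 194 CPM in LPS kidneys 1, 2 and 3, against 1449.6, 1432 and 1581 CPM in Control kidneys 1, 2 and 3. LPS kidney 1 was the highest of the LPS kidneys, and all LPS kidneys lay far below all Control kidneys. The log2 fold change was -2.57 ± 0.25 (SE, adjusted p = 4.50e-05), and larger without LPS replicate 1 (-2.97). Slc12a3, by contrast, had 382, 238 and 297 CPM in LPS kidneys 1, 2 and 3, against 377, 472 and 541 CPM in Control kidneys 1, 2 and 3. Here LPS kidney 1 lay above the lowest Control kidney, so the groups overlapped. The log2 fold change was -0.60 ± 0.18 (SE, adjusted p = 0.0205). That call ended without LPS replicate 2 (log2 fold change of -0.45 with adjusted p = 0.0534), LPS replicate 3 (log2 fold change of -0.58 with adjusted p = 0.0604), Control replicate 2 (log2 fold change of -0.59 with adjusted p = 0.0623) or Control replicate 3 (log2 fold change of -0.48 with adjusted p = 0.0780). In FPKM, which divides by gene length and so allows 2 genes to be compared, the ratio of Slc12a1 to Slc12a3 was 0.681, 0.540 and 0.453 in LPS kidneys 1, 2 and 3, against 2.67, 2.10 and 2.03 in Control kidneys 1, 2 and 3. Slc12a1 was thus the more abundant of the pair in each Control kidney and the less abundant in each LPS kidney (exact permutation test, two-sided p = 0.1, the smallest that 3 against 3 allows).

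Other members of the family gave unlike results. The potassium-chloride cotransporters let chloride leave cells and help to set cell volume. Slc12a4 (KCC1), which most cell types express, had 50.7, 49.2 and 49.6 CPM in LPS kidneys 1, 2 and 3, against 24.8, 19.9 and 19.1 CPM in Control kidneys 1, 2 and 3. The LPS values were nearly identical and lay above all Control values, with a log2 fold change of 1.23 ± 0.10 (SE, adjusted p = 1.72e-05). Slc12a4 was the only tested carrier called higher by at least 2-fold. Slc12a7 (KCC4) had a log2 fold change of -0.28 ± 0.12 (SE, adjusted p = 0.0782) and did not pass, although it passed with DESeq2 (adjusted p = 0.0462), without LPS replicate 1 (log2 fold change of -0.36 with adjusted p = 0.0332) and without Control replicate 1 (log2 fold change of -0.39 with adjusted p = 0.0179). Slc12a2 (NKCC1), the widely expressed relative of Slc12a1, had 80.2, 105 and 75.3 CPM in LPS kidneys 1, 2 and 3, against 76.8, 70.1 and 77.6 CPM in Control kidneys 1, 2 and 3. Its highest value was in LPS kidney 2, the library with seminal vesicle transcripts, whose part in this value was not tested. Its log2 fold change was 0.22 ± 0.12 (SE, adjusted p = 0.176) with a 95% interval of -0.06 to 0.49, and it lay nearer 0 without that library (log2 fold change of 0.06 with adjusted p = 0.652). Slc12a9, at a log2 fold change of -0.23 ± 0.11 (SE, adjusted p = 0.108), did not pass either, except without LPS replicate 3 (log2 fold change of -0.31 with adjusted p = 0.0493), and Slc12a5 and Slc12a8 stayed at or under 1.34 CPM in every library.

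Summed over its 9 genes, the Slc12 family held 248, 163 and 177 FPKM in LPS kidneys 1, 2 and 3, against 476, 484 and 546 FPKM in Control kidneys 1, 2 and 3. The share of Slc12a1 in that sum was 30.95, 22.9 and 21.9% in LPS kidneys 1, 2 and 3, against 63.6, 59.4 and 58.4% in Control kidneys 1, 2 and 3. The share of Slc12a3 was 45.5, 42.3 and 48.4% in LPS kidneys 1, 2 and 3, against 23.8, 28.2 and 28.8% in Control kidneys 1, 2 and 3, so its share was larger in each LPS kidney although its level was lower on average. The share of Slc12a4 was 5.34, 7.74 and 7.15% in LPS kidneys 1, 2 and 3, against 1.38, 1.05 and 0.900% in Control kidneys 1, 2 and 3. For each of these 3 shares the groups did not overlap (exact permutation test, two-sided p = 0.1, the smallest possible). The shares are parts of the same sum, so a smaller Slc12a1 part leaves larger parts for the other genes. The 3 tests are therefore not separate results.

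**Figure D2:**
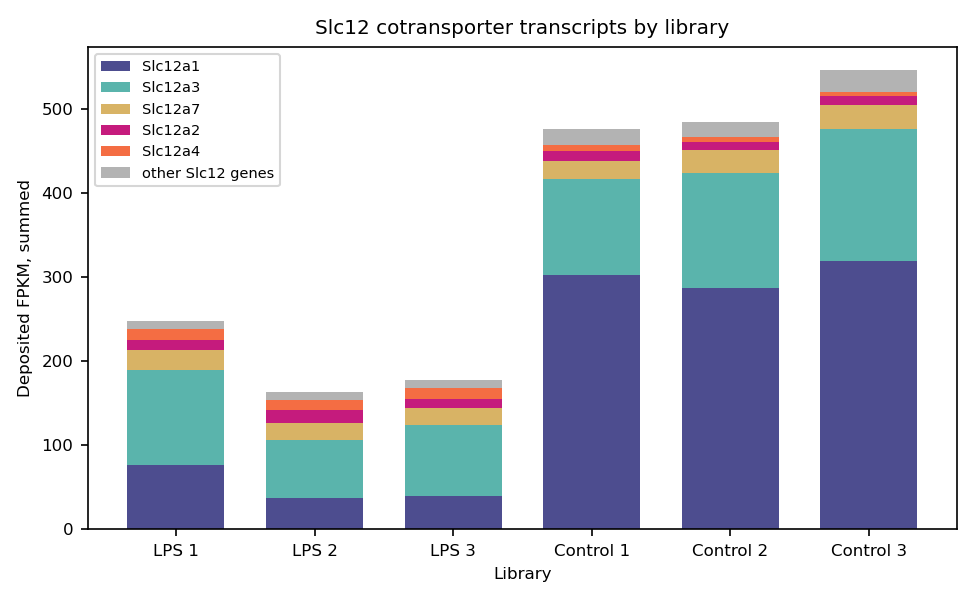
Deposited FPKM of the Slc12 cotransporters in each library, stacked by gene, with the LPS libraries at the left and the Control libraries at the right. The LPS bars reach between 163 and 248 FPKM and the Control bars between 476 and 546 FPKM, and the Slc12a1 block is the part that differs most.

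The promoters of Slc12a1, Slc12a3 and Slc12a4 are shown because these relatives fell most, fell less and rose. Each line gives the 250 bases before the transcription start, 5′ to 3′ on the gene's strand, from RefSeq's table for GRCm38.p6, with CG dinucleotides in capitals. The positions are chr2:125152350-125152599 on the plus strand for Slc12a1, chr8:94328958-94329207 on the plus strand for Slc12a3 and chr8:105966116-105966365 on the minus strand for Slc12a4.
Slc12a1: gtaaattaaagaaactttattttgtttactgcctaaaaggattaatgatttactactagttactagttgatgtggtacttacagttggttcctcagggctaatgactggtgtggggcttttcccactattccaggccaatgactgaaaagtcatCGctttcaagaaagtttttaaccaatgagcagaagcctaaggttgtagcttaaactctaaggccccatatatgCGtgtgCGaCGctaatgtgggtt
Slc12a3: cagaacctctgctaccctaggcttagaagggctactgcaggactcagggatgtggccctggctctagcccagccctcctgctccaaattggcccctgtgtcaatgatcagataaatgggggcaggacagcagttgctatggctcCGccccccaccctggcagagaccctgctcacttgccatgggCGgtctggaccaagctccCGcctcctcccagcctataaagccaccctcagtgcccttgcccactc
Slc12a4: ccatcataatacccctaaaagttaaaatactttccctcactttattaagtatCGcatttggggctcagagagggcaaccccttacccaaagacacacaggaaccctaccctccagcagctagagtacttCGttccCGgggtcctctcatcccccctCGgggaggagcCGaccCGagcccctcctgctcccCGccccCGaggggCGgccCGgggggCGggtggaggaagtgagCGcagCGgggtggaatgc
The Slc12a1 window held 4 CG dinucleotides and 39.6% G or C, the Slc12a3 window 3 and 61.2%, and the Slc12a4 window 13 and 60.8%, beside medians of 6 and 52.4% over 32851 promoter windows. None of the 3 windows held an HNF1-type (GTTAAT and ATTA with any 1 base between), ERR-type (AAGGTCA) or kappaB-type (GGGA, TT and CC with any 1 base between each) match on either strand, nor did they when the 50 bases after the start were added. Over these 300 bases the matches were found in 0.14%, 4.72% and 1.2% of all promoters, in that order. Of the 42 carriers with an entry in the table, Slc26a3 held an HNF1-type and an ERR-type match and Slc26a1 an ERR-type match, which lay partly or wholly after the start. Within the 250 bases alone the shares were 0.134%, 4.08% and 0.98%, and Slc26a3 was the carrier with matches.

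Among the sodium-proton exchangers, which swap sodium for protons across the cell surface or organelle membranes, 5 of 9 were called and 4 did not pass. The called share was 55.6%, beside 50.5% of all genes. Slc9a3 (NHE3), the main luminal exchanger of the proximal tubule, had 178, 159 and 135 CPM in LPS kidneys 1, 2 and 3, against 146, 158 and 186 CPM in Control kidneys 1, 2 and 3. The groups overlapped fully, with a log2 fold change of -0.05 ± 0.13 (SE, adjusted p = 0.753) and a 95% interval of -0.34 to 0.23. Slc9a8 (NHE8), a second luminal exchanger of that segment, had 61.5, 64.7 and 74.8 CPM in LPS kidneys 1, 2 and 3, against 300.1, 285 and 239 CPM in Control kidneys 1, 2 and 3. All LPS values lay below all Control values, at 24.4% of the Control mean, with a log2 fold change of -2.04 ± 0.12 (SE, adjusted p = 1.83e-06). In the summed FPKM of the Slc9 family, the share of Slc9a3 was 42.9, 41.3 and 36.95% in LPS kidneys 1, 2 and 3, against 25.97, 28.3 and 32.4% in Control kidneys 1, 2 and 3. The share of Slc9a8 was 9.23, 10.5 and 12.8% in LPS kidneys 1, 2 and 3, against 33.4, 31.9 and 25.9% in Control kidneys 1, 2 and 3. The mean shares of these exchangers lay within 1 SD of each other in Control kidneys and apart in LPS kidneys (exact permutation test for each share, two-sided p = 0.1, the smallest possible). Both shares are parts of the same sum, so these tests are not separate.

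The other exchangers changed less or were rare. Slc9a2, of the thick limb and distal tubule, fell by 0.51 ± 0.08 on the log2 scale, with 37.3, 33.2 and 34.9 CPM in LPS kidneys 1, 2 and 3, against 47.4, 50.2 and 52.8 CPM in Control kidneys 1, 2 and 3. Slc9a9, an exchanger of endosomes, fell by 2.34 ± 0.46 (log2) at no more than 1.60 CPM in any library. Slc9a4, Slc9a5 and Slc9a7 did not pass and stayed at or under 7.85 CPM.

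Of 9 tested Slc4 carriers, which move bicarbonate, 2 were higher, 4 lower and 3 did not pass. Of all genes 25.7% were higher and 24.8% lower. Slc4a4 (NBCe1), the sodium-bicarbonate cotransporter on the blood side of the proximal tubule and the most abundant of the family, had 1004, 864 and 928 CPM in LPS kidneys 1, 2 and 3, against 884, 1081 and 1155 CPM in Control kidneys 1, 2 and 3. Its groups overlapped, with a log2 fold change of -0.16 ± 0.11 (SE, adjusted p = 0.265) and a 95% interval of -0.41 to 0.09. Slc4a1 (AE1), the anion exchanger of acid-secreting intercalated cells, had 27.1, 17.98 and 20.6 CPM in LPS kidneys 1, 2 and 3, against 83.95, 76.7 and 73.3 CPM in Control kidneys 1, 2 and 3 and fell, with a log2 fold change of -1.83 ± 0.14 (SE, adjusted p = 9.82e-06). Red cells carry the same protein. Of 8 red cell marker genes all were detected, 5 of 6 tested fell, and their summed level ranged from 54.3 to 126 CPM in LPS kidneys and from 247 to 321 CPM in Control kidneys. The part of red cells in the Slc4a1 value was not tested.

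The 2 Slc4 carriers placed in base-secreting intercalated cells changed in opposite directions. Slc4a9 (AE4), on their blood side, had 38.9, 36.3 and 39.6 CPM in LPS kidneys 1, 2 and 3, against 61.6, 66.004 and 70.8 CPM in Control kidneys 1, 2 and 3 and fell, with a log2 fold change of -0.79 ± 0.08 (SE, adjusted p = 4.50e-05). Slc4a8 (NDCBE), a sodium-driven chloride-bicarbonate exchanger placed on their luminal side, had 15.2, 18.4 and 14.4 CPM in LPS kidneys 1, 2 and 3, against 10.3, 10.5 and 10.8 CPM in Control kidneys 1, 2 and 3. It was higher in all LPS kidneys, by a log2 fold change of 0.60 ± 0.13 (SE, adjusted p = 0.00358). Slc4a7 (NBCn1), of the thick limb among other sites, rose by 0.39 ± 0.09 (log2). Slc4a11, a transporter known from a corneal dystrophy, had 5.16, 5.71 and 6.12 CPM in LPS kidneys 1, 2 and 3, against 24.8, 20.7 and 21.4 CPM in Control kidneys 1, 2 and 3. It fell by 1.98 ± 0.13 (log2), the largest decrease among the Slc4 carriers. Slc4a5 (NBCe2) fell by 1.80 ± 0.34 (log2) but was rare, at no more than 2.89 CPM. Slc4a2 (AE2) had a log2 fold change of -0.17 ± 0.07 (SE, adjusted p = 0.0820) and passed in 1 of the 15 alternatives, without Control replicate 1 (log2 fold change of -0.23 with adjusted p = 0.0486), and Slc4a3 did not pass.

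The Slc26 family exchanges chloride, bicarbonate, sulfate and oxalate, and 5 of its 7 tested genes were lower, beside 24.8% of all genes. By edgeR, DESeq2 and limma 0 were higher, and likewise 0 at an unadjusted p under 0.05 by edgeR, although with no filter on low counts 1, the rare Slc26a9, was called higher. Slc26a4 (pendrin) had 40.2, 45.5 and 50.2 CPM in LPS kidneys 1, 2 and 3, against 96.5, 116 and 125 CPM in Control kidneys 1, 2 and 3, with no overlap and a log2 fold change of -1.31 ± 0.12 (SE, adjusted p = 2.50e-05). Slc26a1, the sulfate and oxalate exchanger on the blood side of the proximal tubule, had 31.6, 44.6 and 69.8 CPM in LPS kidneys 1, 2 and 3, against 138, 173 and 156 CPM in Control kidneys 1, 2 and 3. The LPS kidneys differed 2.21-fold among themselves, and all lay below the Control kidneys, with a log2 fold change of -1.68 ± 0.25 (SE, adjusted p = 4.76e-04). Slc26a6, a luminal chloride-oxalate exchanger of the proximal tubule, had 3.26, 3.52 and 4.63 CPM in LPS kidneys 1, 2 and 3, against 8.66, 9.50 and 6.18 CPM in Control kidneys 1, 2 and 3 and fell by 1.09 ± 0.22 (log2). Slc26a7, on the blood side of acid-secreting intercalated cells, had 2.12, 1.35 and 1.13 CPM in LPS kidneys 1, 2 and 3, against 3.88, 5.99 and 7.10 CPM in Control kidneys 1, 2 and 3 and fell by 1.88 ± 0.32 (log2). Slc26a2, a widely expressed sulfate transporter, fell by 0.75 ± 0.17 (log2). Summed FPKM of the 10 Slc26 genes was 23.5, 26.1 and 32.4 FPKM in LPS kidneys 1, 2 and 3, against 63.2, 72.4 and 72.7 FPKM in Control kidneys 1, 2 and 3, a lower sum in each LPS kidney. The share of Slc26a4 within it was 43.01, 43.2 and 38.1% in LPS kidneys 1, 2 and 3, against 39.2, 39.5 and 42.8% in Control kidneys 1, 2 and 3, with overlap (exact permutation test, two-sided p = 0.8).

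The calcium carriers at the cell surface gave unlike results. Slc8a1 (NCX1), the sodium-calcium exchanger of the distal convoluted and connecting tubule, had 42.05, 29.4 and 29.05 CPM in LPS kidneys 1, 2 and 3, against 171, 163 and 229.6 CPM in Control kidneys 1, 2 and 3. The LPS kidneys held 17.8% of the Control mean, with a log2 fold change of -2.49 ± 0.18 (SE, adjusted p = 7.49e-06). The plasma membrane pumps that share its route did not pass. Atp2b1 (PMCA1) had 68.6, 71.7 and 74.6 CPM in LPS kidneys 1, 2 and 3, against 66.3, 63.8 and 77.8 CPM in Control kidneys 1, 2 and 3, a log2 fold change of 0.05 ± 0.09 (SE, adjusted p = 0.684) and a 95% interval of -0.15 to 0.25. Atp2b4 (PMCA4) had 32.4, 29.3 and 20.5 CPM in LPS kidneys 1, 2 and 3, against 27.9, 26.4 and 30.4 CPM in Control kidneys 1, 2 and 3, a log2 fold change of -0.04 ± 0.15 (SE, adjusted p = 0.842) and a 95% interval of -0.39 to 0.31. Atp2b2 (PMCA2) fell by 1.90 ± 0.25 (log2), at no more than 4.01 CPM, and the summed pump transcripts held 12.9, 12.7 and 12.04 FPKM in LPS kidneys 1, 2 and 3, against 12.5, 11.5 and 13.9 FPKM in Control kidneys 1, 2 and 3.

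The calcium pumps that fill the endoplasmic reticulum (SERCA) moved in opposite directions. Atp2a2 (SERCA2), the form most cells use, had 509.7, 536 and 496 CPM in LPS kidneys 1, 2 and 3, against 360.1, 406 and 437 CPM in Control kidneys 1, 2 and 3. It was higher in all LPS kidneys, with a log2 fold change of 0.36 ± 0.09 (SE, adjusted p = 0.00869). Atp2a3 (SERCA3), a form of blood, endothelial and some epithelial cells, had 10.8, 7.67 and 7.22 CPM in LPS kidneys 1, 2 and 3, against 29.7, 27.1 and 25.6 CPM in Control kidneys 1, 2 and 3. It was lower in all LPS kidneys, with a log2 fold change of -1.68 ± 0.16 (SE, adjusted p = 3.43e-05). In FPKM the ratio of Atp2a2 to Atp2a3 was 40.9, 60.7 and 59.5 in LPS kidneys 1, 2 and 3, against 10.5, 12.997 and 14.8 in Control kidneys 1, 2 and 3 (exact permutation test, two-sided p = 0.1, the smallest possible). Of 5 endothelial markers none rose and 1 fell, with sums of 201 to 261 CPM in LPS kidneys and 238 to 304 CPM in Control kidneys. Of 5 lymphocyte markers 1 was tested and fell, with sums of 0.211 to 0.645 CPM in LPS kidneys and 1.31 to 9.29 CPM in Control kidneys. Of 6 neutrophil markers 5 were tested and all 5 rose, with sums of 64.7 to 90.3 CPM in LPS kidneys and 2.83 to 3.42 CPM in Control kidneys. Of 6 macrophage markers 3 rose and 2 fell, with sums of 122 to 142 CPM in LPS kidneys and 95.5 to 134 CPM in Control kidneys. The part of these cells in the Atp2a3 value was not tested. Atp2a1, the form of skeletal muscle, did not pass at 0.399 to 1.24 CPM, and of 8 skeletal muscle markers 1 fell and none rose.

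The beta subunits of the Na,K-ATPase were lower or did not pass. Atp1b1, the beta subunit that takes the enzyme to the cell surface, had 2987, 2699 and 2951 CPM in LPS kidneys 1, 2 and 3, against 3121, 3355 and 3534 CPM in Control kidneys 1, 2 and 3. Each LPS value lay below each Control value, with a small log2 fold change of -0.21 ± 0.08 (SE, adjusted p = 0.0442). That call was lost in 10 of the 15 alternatives, among them each fit without 1 of LPS replicates 1 (log2 fold change of -0.24 with adjusted p = 0.0510), 2 (log2 fold change of -0.17 with adjusted p = 0.225) and 3 (log2 fold change of -0.23 with adjusted p = 0.0685) and Control replicates 2 (log2 fold change of -0.21 with adjusted p = 0.103) and 3 (log2 fold change of -0.17 with adjusted p = 0.167). The FPKM of the 3 beta subunits summed to 1212, 1079.8 and 1169 FPKM in LPS kidneys 1, 2 and 3, against 1291, 1328 and 1398 FPKM in Control kidneys 1, 2 and 3, with no overlap (exact permutation test, two-sided p = 0.1, the smallest possible). Atp1b1 made up 95.9% to 97.0% of that sum in each library, so the sum is not a result apart from Atp1b1.

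The other beta subunits were less abundant. Atp1b2 fell by 0.52 ± 0.16 (log2), a call that ended without LPS replicate 2 (log2 fold change of -0.51 with adjusted p = 0.0510), LPS replicate 3 (log2 fold change of -0.47 with adjusted p = 0.0641) or Control replicate 1 (log2 fold change of -0.35 with adjusted p = 0.0604). Atp1b3, the second beta subunit by FPKM, did not pass and had a log2 fold change of 0.01 ± 0.08 (SE, adjusted p = 0.902) with a 95% interval of -0.17 to 0.20.

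Set side by side by mean FPKM, 5 abundant carriers in LPS kidneys were, from high to low, Atp1b1 (1108 ± 65.7 FPKM), Slc4a4 (103 ± 8.62 FPKM), Atp2a2 (96.7 ± 4.21 FPKM), Slc12a3 (89.2 ± 22.1 FPKM) and Slc12a1 (50.97 ± 22.4 FPKM; mean ± SD, n = 3). In Control kidneys the order was Atp1b1 (1292 ± 59.3 FPKM), Slc12a1 (303 ± 15.8 FPKM), Slc12a3 (136 ± 21.9 FPKM), Slc4a4 (115 ± 13.5 FPKM) and Atp2a2 (75.9 ± 6.05 FPKM; mean ± SD, n = 3). Slc4a4, Atp2a2 and Slc12a3 lay within 1 SD of their neighbours in LPS kidneys, as Slc12a3 and Slc4a4 did in Control kidneys. Slc12a1 was the lowest of the 5 in LPS kidneys and second to Atp1b1 in Control kidneys.

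The 9 carriers below the filter had few reads. Slc26a9 had 13 counts over the LPS libraries and 1 over the Control libraries, and with no filter on low counts it was called higher. Slc26a3 had 9 and 1 counts, and all 9 LPS counts were in LPS replicate 2. Slc26a8 had 15 and 29 counts, and Slc4a10, a form of neurons, had 0 and 7. Slc8a3 had 8 and 8 counts and Atp1a4, the form of sperm, 7 and 1. Slc24a1, Slc24a2 and Slc24a4, exchangers of photoreceptors, neurons and enamel cells, had at most 1 count in each group. In the same family Slc24a3 and Slc24a5 were tested and did not pass, at no more than 3.98 CPM, as was Slc8a2 at no more than 0.553 CPM. Slc26a10 and Slc26a11 also did not pass.

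Arranged by nephron segment, 18 carriers could be placed. Of 5 proximal tubule carriers 3 were lower and 2, Slc9a3 and Slc4a4, did not pass. Of 4 thick limb carriers 1 was higher and 2 lower, of 4 distal convoluted and connecting tubule carriers 2 were lower, and of 5 intercalated cell carriers 1 was higher and 4 lower. Their median log2 fold changes were -1.09, -0.34, -0.32 and -1.31 in that order, beside -0.27 for the 32 tested carriers with no single segment. Of all genes tested 25.7% were higher and 24.8% lower, and the segment counts were not tested against these shares. The distal count was 1 in place of 2 without LPS replicate 2, LPS replicate 3, Control replicate 2 or Control replicate 3, each of which ended the Slc12a3 call.

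**Figure D3:**
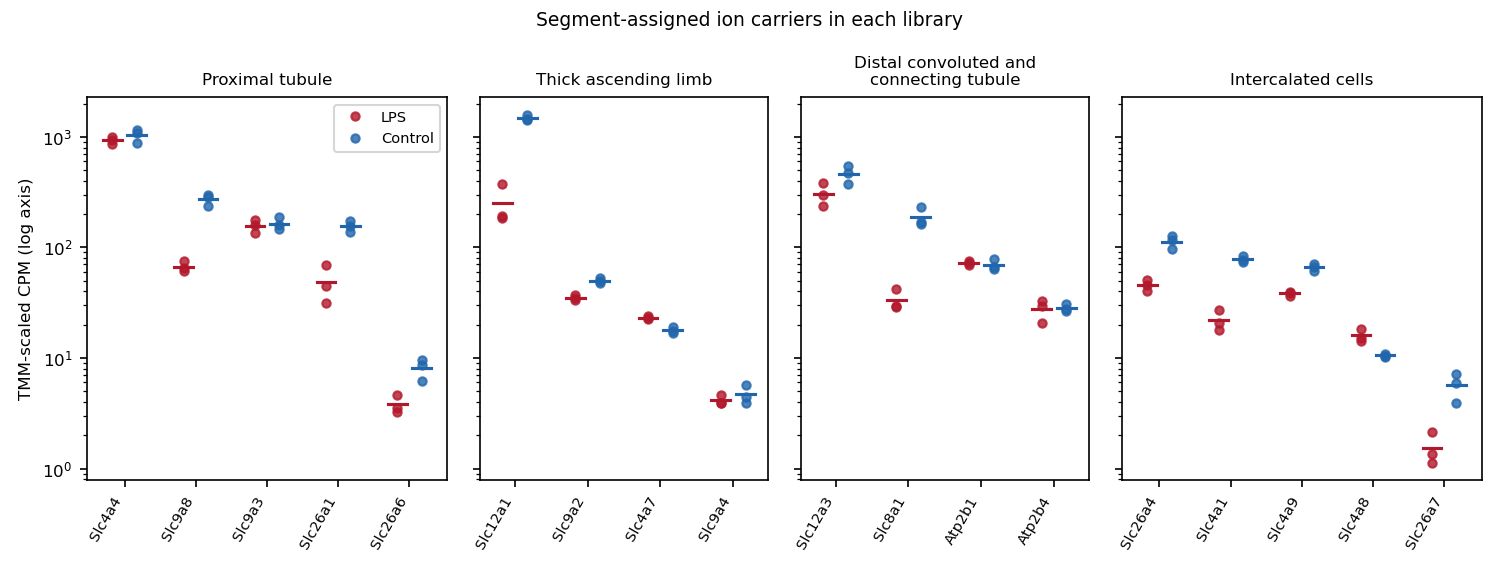
TMM-scaled CPM (log axis) of the 18 carriers placed in 1 segment, with a point per library and a line at each group's mean, LPS at the left of Control for each gene. Slc12a1, Slc8a1, Slc9a8, Slc26a1, Slc4a1 and Slc26a4 show a gap between the groups, and Slc4a4, Slc9a3, Atp2b1 and Atp2b4 overlap.

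Other markers of these segments, chosen from outside the carriers, were measured in the same libraries. All 8 proximal tubule markers fell, and their sum was 1993 to 2144 CPM in LPS kidneys and 11996 to 13672 CPM in Control kidneys. Of 7 thick limb markers 6 fell, with Umod (uromodulin) as the exception at a log2 fold change of -0.04 ± 0.07 (SE, adjusted p = 0.621), and the sums were 4693 to 4897 CPM in LPS kidneys and 7139 to 7647 CPM in Control kidneys. All 6 distal convoluted tubule markers fell, with sums of 242 to 391 CPM in LPS kidneys and 665 to 750.05 CPM in Control kidneys. All 8 intercalated cell markers fell, with sums of 186 to 222 CPM in LPS kidneys and 406 to 438 CPM in Control kidneys.

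Set against these marker sums within each library, a comparison added after the values were seen, the carriers of 1 segment did not all follow its markers to the same degree. The log2 ratio of Slc9a3 to the proximal tubule sum was higher in LPS than in Control kidneys by 2.59, and that of Slc4a4 by 2.50. For Slc26a6 the difference was 1.56, for Slc26a1 0.90 and for Slc9a8 0.61, and all LPS values lay above all Control values for each of these 5 carriers. Against the mean log2 level of the 8 markers Slc26a1 (0.63) and Slc9a8 (0.35) overlapped between groups. The log2 fold changes of these 8 markers ranged from -4.36 to -1.605, with a median of -1.97. Those of Slc9a8 (-2.04) and Slc26a1 (-1.68) lay within that range, so neither carrier was higher against each marker. In the thick limb the log2 ratio of Slc12a1 to the markers was -3.66, -4.66 and -4.66 in LPS kidneys 1, 2 and 3, against -2.30, -2.42 and -2.22 in Control kidneys 1, 2 and 3, a difference of -2.01. Umod makes up most of that marker sum, and against the mean log2 level of the 7 markers the difference was -1.17. The log2 fold changes of these 7 markers ranged from -4.74 to -0.04, with a median of -1.11, beside -2.57 for Slc12a1. Slc12a1 was thus not lower against each marker. For the other thick limb carriers the mean differences were above 0. Slc4a7 lay above in all LPS kidneys, by 1.02 against the sum. Slc9a4 (0.47) and Slc9a2 (0.12) overlapped between groups against the sum and lay above against the mean log2 level, by 1.32 and 0.96.

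In the distal convoluted tubule the log2 ratio of Slc12a3 to the markers was higher by 0.61 and that of Slc8a1 lower by 1.27. For Atp2b1 and Atp2b4, which are also made elsewhere in the kidney, the difference was 1.28 and 1.16. Calb1 made up most of that marker sum, at a mean of 216 CPM in LPS kidneys and 528 CPM in Control kidneys. The log2 fold changes of the 6 markers ranged from -4.87 to -0.38, with a median of -1.08, beside -0.60 for Slc12a3. Slc12a3 was thus not higher against each marker, and Slc8a1, with a log2 fold change of -2.49, was not lower against each. Among intercalated cell carriers Slc4a8 was higher against the marker sum by 1.64 and Slc4a9 by 0.25, while Slc4a1 was lower by 0.81. The 8 markers had log2 fold changes from -2.53 to -0.49, with a median of -1.04, beside -0.79 for Slc4a9 and -1.83 for Slc4a1. Slc4a9 was thus not higher against each marker, nor Slc4a1 lower against each. Slc26a4 (-0.27) and Slc26a7 (-0.85) overlapped between groups. Where the groups did not overlap, each exact permutation test gave a two-sided p = 0.1, the smallest possible with 3 against 3, so none of these differences could pass 0.05.

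**Figure D4:**
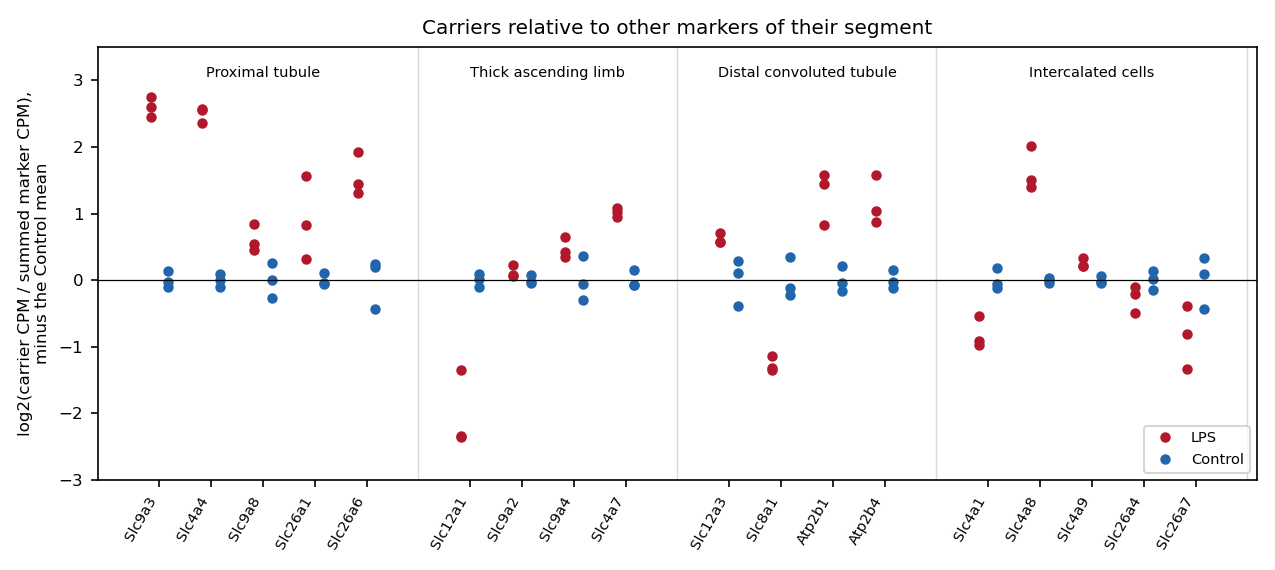
Log2 of each carrier's CPM over the summed CPM of other markers of its segment, as the difference from the Control mean, with a point per library and LPS at the left of Control. Slc9a3 and Slc4a4 lie more than 2 log2 units above the Control mean in every LPS kidney, and Slc12a1 and Slc8a1 lie below it in every LPS kidney.

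Genes whose products control or accompany the carriers were described as a second group. Some of them, such as Bsnd, Kcnj1, Calb1 and Klhl3, were also in the segment marker lists, so the marker and partner counts are not separate. Of 41 listed partners 38 were tested, 7 were higher and 23 lower, beside 25.7% and 24.8% of all genes, and the median log2 fold change was -0.51. Without LPS replicate 2 the counts were 6 and 22, beside 3166 and 3031 of the 14413 genes tested in that fit. In the WNK pathway, in which WNK kinases act through SPAK (Stk39) and OSR1 (Oxsr1) to switch on Slc12a1 and Slc12a3, 3 of 12 were higher and 5 lower. Klhl3, the adaptor that marks WNK kinases for breakdown, fell by 1.34 ± 0.17 (log2), with 27.7, 18.3 and 18.1 CPM in LPS kidneys 1, 2 and 3, against 47.6, 53.9 and 60.9 CPM in Control kidneys 1, 2 and 3. The kinases Wnk1 and Wnk4 fell by 0.65 ± 0.12 and 0.46 ± 0.10 (log2), and Stk39 did not pass at a log2 fold change of 0.02 ± 0.08 (SE, adjusted p = 0.863). Oxsr1 rose by 0.27 ± 0.08 (log2), the ubiquitin ligase Nedd4l by 0.45 ± 0.11 and the aldosterone-induced kinase Sgk1 by 0.70 ± 0.23. For Sgk1 the groups overlapped, with 176, 255 and 150.1 CPM in LPS kidneys 1, 2 and 3, against 154, 112 and 91.7 CPM in Control kidneys 1, 2 and 3. Its highest value was in LPS kidney 2, the library with seminal vesicle transcripts, and its call ended without that library (log2 fold change of 0.45 with adjusted p = 0.0824). It also ended without Control replicate 2 (0.65 with adjusted p = 0.0938) or Control replicate 3 (0.54 with adjusted p = 0.0919), with DESeq2 (adjusted p = 0.0594) and with limma on log2(FPKM + 1) (adjusted p = 0.0538). Without Control replicate 2 the Oxsr1 call ended as well (0.26 with adjusted p = 0.0583), which left 1 gene of this list called higher, Nedd4l.

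Among scaffolds and regulators of Slc9a3 and Slc4a4, 2 of 7 tested were higher and 4 lower, beside 25.7% and 24.8% of all genes. The luminal scaffold Pdzk1 had 488, 431 and 455 CPM in LPS kidneys 1, 2 and 3, against 1257, 1366 and 1315 CPM in Control kidneys 1, 2 and 3 and fell by 1.52 ± 0.08 (log2), and the scaffold Slc9a3r1 (NHERF1) fell by 0.56 ± 0.11. Ezr (ezrin), which ties such scaffolds to actin, had 706, 826 and 1030.2 CPM in LPS kidneys 1, 2 and 3, against 399, 469 and 457 CPM in Control kidneys 1, 2 and 3 and rose by 0.95 ± 0.14. Chp1, a calcineurin-like subunit of sodium-proton exchangers, had 478, 386 and 384 CPM in LPS kidneys 1, 2 and 3, against 182, 195 and 217 CPM in Control kidneys 1, 2 and 3 and rose by 1.07 ± 0.11.

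Among FXYD proteins and related regulators of the P-type pumps, 1 of 7 tested was higher and 5 lower, beside 25.7% and 24.8% of all genes. Fxyd2, the gamma subunit of the tubular Na,K-ATPase, had 699, 590.04 and 704 CPM in LPS kidneys 1, 2 and 3, against 1533, 1603 and 1465 CPM in Control kidneys 1, 2 and 3. It fell by 1.21 ± 0.09 (log2), whereas the log2 fold change of Atp1b1 was -0.21 ± 0.08. Fxyd5 (dysadherin) rose by 0.86 ± 0.21, and Pln (phospholamban), an inhibitor of Atp2a2, fell by 1.47 ± 0.47 at a mean of 0.944 CPM in LPS kidneys and 2.64 CPM in Control kidneys. The Pln call ended without any 1 of LPS replicates 2 and 3 and Control replicates 1, 2 and 3 (adjusted p between 0.0571 and 0.0742).

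Of 12 partner channels and calcium proteins 1 was higher and 9 lower, beside 25.7% and 24.8% of all genes. Bsnd (barttin), a chloride channel subunit of the thick limb, had 32.6, 26.8 and 31.5 CPM in LPS kidneys 1, 2 and 3, against 102, 91.7 and 83.9 CPM in Control kidneys 1, 2 and 3 and fell by 1.61 ± 0.10 (log2). Kcnj1 (ROMK), a potassium channel that recycles potassium for Slc12a1, fell by 0.92 ± 0.13. Casr, the calcium-sensing receptor of the thick limb, fell by 1.46 ± 0.13. Calb1 (calbindin), which carries calcium through distal cells towards Slc8a1, fell by 1.29 ± 0.19. Trpv5, the luminal calcium channel of those cells, did not pass at a log2 fold change of -0.35 ± 0.14 (SE, adjusted p = 0.0638), although it passed without LPS replicate 1 (-0.50 with adjusted p = 0.00851) and with the replicate block (adjusted p = 0.0304). Its relative Trpv6 rose by 1.86 ± 0.22, with 4.88, 6.83 and 5.54 CPM in LPS kidneys 1, 2 and 3, against 1.64, 1.59 and 1.51 CPM in Control kidneys 1, 2 and 3.

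**Figure D5:**
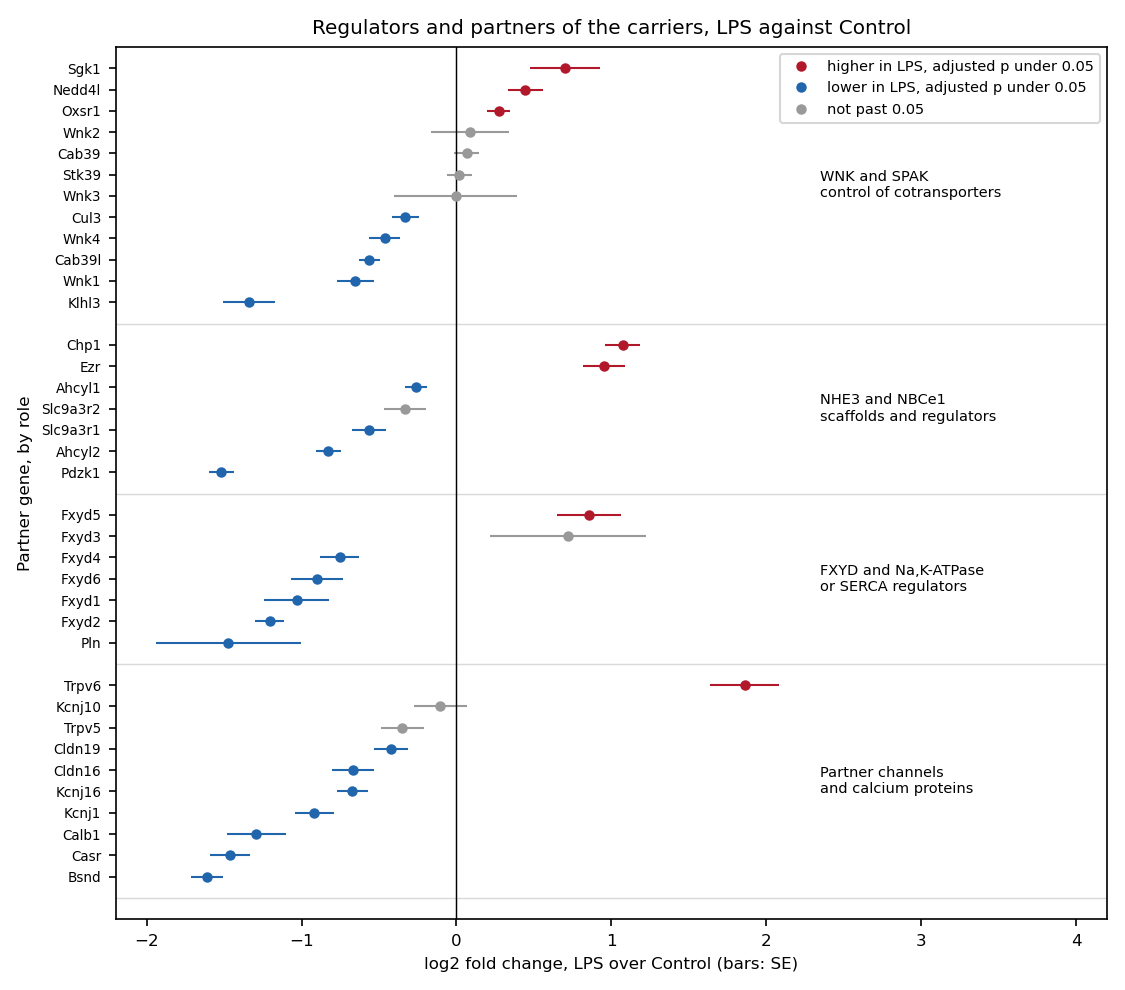
Log2 fold change of 36 tested regulators and partners of the carriers, LPS over Control, with its SE as a bar, grouped by role. Coloured points had an adjusted p under 0.05. Most points lie below 0, with Trpv6, Chp1, Ezr and Fxyd5 among those above it.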

How the data were processed

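Whole kidneys of 3 LPS and 3 Control mice were used. Per the labels' protocols, TRIzol served for RNA extraction and the VAHTS Universal V6 kit for library preparation. The submitters' processing notes name HISAT2, HTSeq, SAMtools, DESeq2 and R 3.2.0. As to genome build, annotation and strand setting, none is stated in the sources used here. Reads of overlapping or antisense genes therefore cannot be told apart. The authors deposited a raw count and an FPKM value per gene and library. The deposited FPKM of 106077 of 106080 values equals the count divided by a whole gene length and the library total, within a relative 1e-06.

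The test of the counts was that of edgeR 4.0.16 (R 4.3.3), with its defaults (filterByExpr with a minimum count of 10, TMM factors, quasi-likelihood test), with Benjamini-Hochberg adjustment over 14219 genes and a threshold of 0.05, after a check on simulated data. In that check 13 of 154 calls fell on genes simulated without a change. It recovered 44.8% of 1.5-fold, 70.1% of 2-fold and 97% of 4-fold changes, so small changes can be missed. SE and 95% intervals come from that fit. CPM values are TMM-scaled. Levels of different genes, shares and ratios use the FPKM, with exact two-sided permutation tests over samples. Alternatives were RLE factors or none, other low-count filters, DESeq2 1.42.0, limma 3.58.1 on log2(FPKM + 1) or log2(FPKM + 0.1), a replicate block, the genes high in LPS replicate 2 left out, and each library left out. By rule, carriers called with at least a 2-fold change and a mean of at least 1 CPM were named, with 15 carriers of known segment or route, and partners by role. Slc12a7, Slc9a2, Slc4a7, Slc4a8, Slc26a2, Atp2a2, Atp1b2 and other carriers given values outside it were chosen after their values were seen. Some genes are not reported here, and they stay in the fits, counts, medians and family sums. Totals ranged from 29097558 to 33454344 counts. The carriers, their partner and marker lists and the tests were chosen with earlier results of these data known. The ratios to marker sums, the CG marking and the shortening of the promoter window to 250 bases were chosen after the values were seen.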

Additional observations from a re-analysis of the deposited data

How the results depend on the processing

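Over 15 alternatives, the genes called higher numbered 3077 to 3724 and those called lower 3010 to 3581, and the carriers called higher 4 to 6 and lower 19 to 23. Of the 27 called carriers 23 kept direction and call in each alternative that tested them, and Slc12a3, Atp1b1 and Atp1b2 were among those that did not. Of the 23 carriers that did not pass, 11 stayed so with the same sign in each alternative that tested them. The filter on a mean CPM of at least 1 left 43 carriers. Thus 1 of the called carriers that kept their call (Slc9a9) and 4 of these 11 were followed in 14 alternatives. Leaving out 1 library also turned the sign of carriers that did not pass. Over all alternatives that tested them, their log2 fold changes were -0.044 to 0.0508 for Atp1b3, -0.0090 to 0.14 for Atp2b1, -0.18 to 0.13 for Atp2b4 and -0.32 to 0.18 for Slc12a5. They were -0.39 to 0.30 for Slc12a8, -0.32 to 0.0487 for Slc26a10, -0.15 to 0.0527 for Slc9a3 and -0.41 to 0.0901 for Slc9a7. Slc12a5 also turned to 0.0102 with limma on log2(FPKM + 0.1) and to 0.0316 with the replicate block. The cause was not tested. The labels state no pairing of the samples by replicate number. Same-numbered LPS and Control libraries had correlations of 0.0478, -0.0535 and -0.00201 between their deviations from the group means. These values show no sign of pairing but cannot exclude it. With the replicate number as a block, 3414 genes were higher and 3331 lower, among them 5 and 21 carriers, and the Atp1b1 call ended (adjusted p = 0.170). Limma on log2(FPKM + 1) reduced the fold changes of rare genes, for Atp2b2 to -0.26 and for Slc4a5 to -0.32. Depth limits the rare carriers, whose fold changes have wide intervals.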
